A study of Mus musculus with 15 samples.

Results

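The 84 genes described here are those whose single annotated symbol begins with Kcn, the prefix of the potassium channel genes, out of 18193 genes on the array. Each was read from 1 probe set, the one with the highest mean over the 15 arrays. By what the encoded proteins are known to do, 11 of them were listed as epithelial channels, 14 as muscle and pacemaker channels and 29 as neuronal channels, and 30 stood in no list. By structure the 84 comprised 31 voltage-gated subunits, 15 auxiliary subunits, 15 inward rectifiers, 12 tandem pore (Kcnk) channels, 8 calcium- or sodium-activated channels and 3 noncoding RNAs named after a channel gene. Most were dim on the array: the mean of 75 lay below the median gene mean of 8.39 (log2), and 9 lay above it.

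Potassium channels let potassium leave or enter a cell down its gradient and so set the membrane voltage. In the colonic epithelium, basolateral channels (Kcnq1 with its partner Kcne3, and Kcnn4) supply the driving force for chloride secretion and sodium uptake, while apical channels secrete potassium into the lumen. In the muscle wall and its nerves and pacemaker cells, calcium-activated, transient and delayed rectifier channels shape slow waves, contraction and firing.

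The colons were those of male mice, 3 months old, littermates on a C57BL/6 and 129 hybrid background, and gave 15 RNA samples. The 5 groups of 3 arrays were wild type colon (APC+/+/Olfm4+/+), APC mutant colon (APC+/-/OLFM4(+/+)), Olfm4 mutant colon (APC+/+/Olfm4-/-), and, from double mutant mice (APC+/-/Olfm4-/-), tissue labelled adjacent normal and tumour tissue. Adjacent and tumour arrays thus shared both mutations. By their titles the double mutant arrays came from 2 animals, replicate 1 of both tissues from the first and replicates 2 and 3 of both tissues from the second, although the design text speaks of 3 mice per category. The title number of Olfm4 mutant replicate 3 joins digits of those of replicates 1 and 2, and its values correlated with theirs at 0.995 and 0.992, against 0.987 between replicates 1 and 2. What the p-values weigh is thus the spread among these arrays, part of which lies within an animal. The labels do not say how either mutation was made or which layers of the colon wall were taken, and in whole tissue fewer cells of a type and less RNA per cell cannot be told apart.

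Values are log2 expression made by RMA, a method that summarises probes and forces the arrays to a common distribution. They ran from 2.56 to 14.96, with array medians between 6.35 and 6.47. The Olfm4 probe set read 2.97 to 3.32 on all 15 arrays, wild type included, so it does not check the Olfm4 labels, and Apc read 10.04 to 11.31. The spike-in control RNAs showed a 3-prime minus 5-prime difference of 2.05 ± 0.08 (log2, SD, n = 3) on wild type arrays. It was 2.23 ± 0.20 with the APC mutation, 2.70 ± 0.53 without Olfm4, 4.12 ± 0.28 for adjacent tissue and 4.98 ± 0.25 for tumour. It moved with the groups and with the array numbers, which run through the groups in blocks, so array order and group cannot be told apart. Wild type replicate 1 stood apart from the other wild type arrays, with which it correlated at 0.972 and 0.978, while replicates 2 and 3 correlated at 0.987. Results that rest on it are given with and without it.

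RefSeq promoters (GRCm38.p6, 250 bases before to 50 after a gene's start) were matched for 64 of the 84 genes, with 89 entries. Those of 3 of the 4 genes that were higher in tumour and of 2 that were much lower are printed because the results turn on them. CG dinucleotides, the bases at which mammalian DNA is methylated, are in capitals.
Kcnk16, chr14:20269220-20269519, minus strand: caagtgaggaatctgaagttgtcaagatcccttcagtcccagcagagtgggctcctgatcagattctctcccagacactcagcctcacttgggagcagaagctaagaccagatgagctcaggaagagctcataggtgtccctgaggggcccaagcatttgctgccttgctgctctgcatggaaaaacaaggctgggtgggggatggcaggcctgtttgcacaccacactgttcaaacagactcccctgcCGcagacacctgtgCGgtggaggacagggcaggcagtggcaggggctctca
Kcnh8, chr17:52602459-52602758, plus strand: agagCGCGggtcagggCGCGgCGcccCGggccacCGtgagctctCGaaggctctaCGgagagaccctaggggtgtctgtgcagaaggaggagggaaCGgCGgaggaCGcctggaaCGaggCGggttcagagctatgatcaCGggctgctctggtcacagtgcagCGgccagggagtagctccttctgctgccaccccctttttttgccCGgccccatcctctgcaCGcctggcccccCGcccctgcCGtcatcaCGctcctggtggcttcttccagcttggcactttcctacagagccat
Kcnmb4, chr10:116473474-116473773, minus strand: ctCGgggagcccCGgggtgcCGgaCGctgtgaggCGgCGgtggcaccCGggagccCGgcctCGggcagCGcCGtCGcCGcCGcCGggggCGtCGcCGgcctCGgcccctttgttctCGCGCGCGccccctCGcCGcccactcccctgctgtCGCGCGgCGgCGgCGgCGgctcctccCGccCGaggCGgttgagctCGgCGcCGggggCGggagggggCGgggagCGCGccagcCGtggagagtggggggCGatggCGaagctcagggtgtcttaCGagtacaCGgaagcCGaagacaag
Kcnk5, chr14:20181733-20182032, minus strand: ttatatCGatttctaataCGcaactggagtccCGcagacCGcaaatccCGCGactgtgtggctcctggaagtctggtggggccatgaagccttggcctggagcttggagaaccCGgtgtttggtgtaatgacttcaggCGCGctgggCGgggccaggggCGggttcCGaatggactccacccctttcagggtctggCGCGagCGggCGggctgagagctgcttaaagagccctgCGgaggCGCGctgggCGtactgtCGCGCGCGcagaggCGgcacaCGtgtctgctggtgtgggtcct
Kcnd3, chr3:105451640-105451939, plus strand: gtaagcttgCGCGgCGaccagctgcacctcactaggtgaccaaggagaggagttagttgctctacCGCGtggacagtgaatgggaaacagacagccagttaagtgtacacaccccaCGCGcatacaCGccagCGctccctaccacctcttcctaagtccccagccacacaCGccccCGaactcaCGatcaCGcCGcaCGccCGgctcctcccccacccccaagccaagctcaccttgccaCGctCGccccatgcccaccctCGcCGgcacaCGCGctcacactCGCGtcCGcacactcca

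These 5 windows differed widely in CG. Kcnk16 held 2 CG, and 23.3% of the 32851 RefSeq promoters held as few or fewer. Kcnh8 held 21, Kcnd3 25 and Kcnk5 26, with 76.9%, 83.1% and 84.5% of promoters at or below them. Kcnmb4 held 48, with 99.0% at or below. The 89 Kcn entries had a median of 9 CG (quartiles 5 and 20), against 7 (3 and 20) over all promoters. The TCF/LEF motif CTTTGAT, on either strand, lay in 3 of the 89 entries (Kcne4, Kcnj16 and Kcnk2) and in 3.73% of all promoters. The letters TATAAA lay in 5 of the 89 and in 13.6% of all. The SRF CArG box lay in 0 of the 89 and in 1.63% of all. Kcnk5 and Kcnk16 are neighbours on chromosome 14 with 0 protein-coding genes between them, and their RNAs moved in opposite directions in tumour, as described next.

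Tumour against adjacent tissue asks how tumour differs from the neighbouring colon of the same animals. In tumour, 4 Kcn genes rose and 19 fell, by limma at an adjusted p under 0.05, which makes 27.4% of the 84 against 28.1% of all genes. Of all genes 14.3% rose and 13.8% fell. Arrays did not overlap between the groups for 30 Kcn genes, 25 of them lower and 5 higher in tumour, against 45.9% of all genes (22.3% lower and 23.6% higher). The share of Kcn genes that changed was thus close to the background, and their median difference was -0.09, against 0.0019 over all genes.

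**Figure D1:**
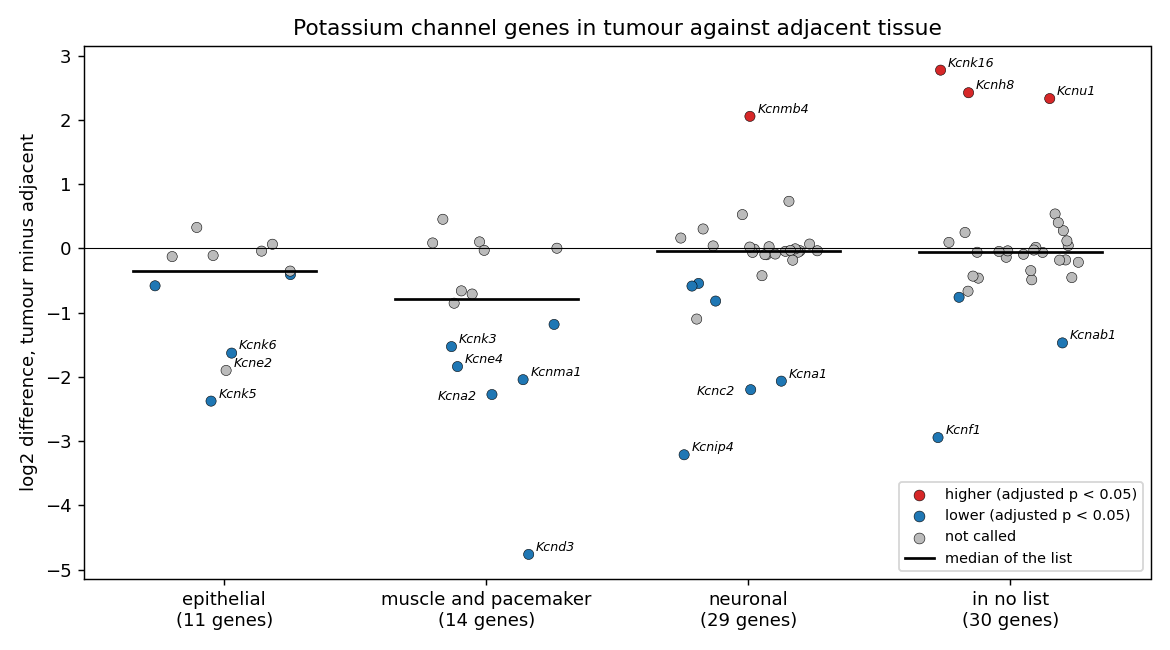
Log2 difference of tumour minus adjacent tissue for each of the 84 Kcn genes (points), by role list; bars are list medians, red points passed the test as higher and blue as lower. In the muscle and pacemaker list 6 of 14 genes fell and 0 rose, and 3 of the 4 genes that rose stood in no list.

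Epithelial channels split. Of the 11, 4 fell (Kcnk5, Kcnk6, Kcnn4 and Kcne3), 0 rose and 7 did not pass, with a median of -0.35. Among all genes 13.8% fell and 14.3% rose. The 2 of the 11 that fell most were tandem pore channels. Kcnk5, an alkaline-activated background channel, read 8.64, 9.70 and 9.35 in adjacent tissue and 7.10, 6.60 and 6.86 in tumour. Its other groups were as high as adjacent tissue, with 9.91, 8.21 and 9.35 in wild type, 9.45, 9.23 and 9.25 in APC mutant and 9.59, 9.80 and 9.69 in Olfm4 mutant colon. The 3 tumour arrays lay below all the other 12, a difference of -2.38 (SE 0.35, adjusted p = 0.00026), or 5.2-fold. A second, dimmer Kcnk5 probe set differed by -0.10 and was not called.

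Kcnk6, a tandem pore channel related to Kcnk1, read 11.92, 11.53 and 11.70 in adjacent tissue and 10.75, 9.995 and 9.51 in tumour, with no overlap. Its wild type arrays read 10.71, 11.86 and 11.58, the APC mutant arrays 11.74, 11.32 and 11.06 and the Olfm4 mutant arrays 11.45, 11.65 and 11.42. The fall was 3.09-fold (-1.63, SE 0.32, adjusted p = 0.0019). Kcnk1 itself, a weakly rectifying member of the same family, did not share it. It read 12.86, 12.65 and 12.80 in adjacent tissue and 12.89, 12.86 and 12.76 in tumour, and the interval of the difference ran from -0.24 to 0.37. In the other groups Kcnk1 was spread somewhat wider, at 12.32, 12.81 and 12.78 in wild type, 12.38, 12.68 and 12.37 in APC mutant and 12.60, 12.72 and 12.49 in Olfm4 mutant colon.

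Of the basolateral channels Kcnq1 was not called, while its partner Kcne3 and Kcnn4 fell by smaller amounts than Kcnk5 and Kcnk6. Kcnq1, the pore of the cAMP-driven crypt channel, read 10.88, 10.93 and 10.70 in adjacent tissue and 10.90, 10.78 and 10.69 in tumour. Its difference was -0.04 with an interval from -0.42 to 0.34, so a fall of the size seen for Kcnk5 or Kcnk6 lay outside it. The remaining arrays of Kcnq1 read 10.96, 10.33 and 10.38 in wild type, 10.62, 10.40 and 10.50 in APC mutant and 10.41, 10.98 and 10.69 in Olfm4 mutant colon. Kcne3, the auxiliary subunit that holds Kcnq1 open, read 13.46, 13.27 and 13.17 in adjacent tissue and 12.85, 12.97 and 12.86 in tumour. That small fall of -0.41 (SE 0.12) passed the test at an adjusted p of 0.018, but not without adjacent replicate 1, tumour replicate 1 or tumour replicate 3 (adjusted p = 0.075, 0.053 and 0.056). In the other groups Kcne3 read 13.37, 13.21 and 13.05 (wild type), 13.51, 13.55 and 13.49 (APC mutant) and 13.60, 13.33 and 13.52 (Olfm4 mutant).

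Kcnn4, the calcium-activated basolateral channel, read 12.93, 12.60 and 12.42 in adjacent tissue and 12.20, 12.18 and 11.82 in tumour. The groups did not overlap, but the fall of -0.58 (SE 0.20) passed at an adjusted p of 0.043 and, leaving out single arrays, was kept only without adjacent replicate 3 (adjusted p from 0.054 to 0.16 without the others). Its levels elsewhere were 12.01, 12.81 and 12.29 in wild type, 12.48, 12.54 and 12.19 in APC mutant and 12.63, 12.68 and 12.82 in Olfm4 mutant colon, so 2 tumour arrays lay above the lowest wild type array. When all probe sets were tested, neither this Kcnn4 set nor its dimmer second one was called between tumour and adjacent tissue. Kcnj13, an inward rectifier of transporting epithelia, was dim in every group. It read 4.23, 4.29 and 5.07 in adjacent tissue, 4.31, 4.22 and 3.998 in tumour, 4.37, 4.42 and 4.18 in wild type, 4.69, 4.15 and 4.18 in APC mutant and 4.07, 4.70 and 4.74 in Olfm4 mutant colon. Kcne2, an auxiliary subunit best known from the acid-secreting stomach, had the widest spread of the list, with 5.95, 6.55 and 8.57 in adjacent tissue and 5.52, 5.25 and 4.59 in tumour. Its difference of -1.90 (SE 0.84) did not pass (adjusted p = 0.11). The kidney and stomach inward rectifiers Kcnj1, Kcnj15 and Kcnj16 differed by -0.13, 0.33 and -0.11, none of them called.

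Beside these values, all 7 absorptive colonocyte markers fell in tumour, with summed log2 levels between 88.5 and 88.9 in adjacent tissue and between 65.1 and 69.4 in tumour. Of 8 pan-epithelial markers 4 fell, with summed levels of 107.6 to 108.1 in adjacent tissue against 102.4 to 104.4 in tumour. Goblet cell markers fell in 5 of 5 cases and enteroendocrine markers in 5 of 6. The part of these shifts in the channel results was not tested.

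Muscle and pacemaker channels held the largest fall of all 84 genes. Of the 14 measured, 6 fell (Kcnd3, Kcna2, Kcnma1, Kcne4, Kcnk3 and Kcnq5), 0 rose and 8 did not pass, with a median of -0.78. The shares of all genes were 13.8% lower and 14.3% higher. Kcnd3, the pore of a transient outward current of heart and gut muscle, read 10.99, 10.46 and 10.49 in adjacent tissue and 8.10, 4.14 and 5.41 in tumour. Elsewhere it read 11.27, 9.46 and 9.82 in wild type, 10.69, 10.58 and 10.56 in APC mutant and 10.42, 10.96 and 10.66 in Olfm4 mutant colon. All 12 arrays without tumour lay above the 3 tumour arrays, of which that of the first animal was highest. The difference was -4.76 (SE 0.74, adjusted p = 0.00038), a 27.1-fold lower level, with -2.89 in the first animal and -5.70 in the second. The 3 other Kcnd3 probe sets were much dimmer and differed by 0.05, -0.20 and -0.01.

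Kcnma1, the pore of the large-conductance calcium-activated channel that both smooth muscle and potassium-secreting epithelium use, read 11.63, 11.44 and 11.63 in adjacent tissue and 10.13, 9.45 and 8.99 in tumour. The remaining groups lay within a narrow band, 11.25, 11.004 and 11.01 in wild type, 11.15, 11.39 and 11.32 in APC mutant and 11.36, 11.37 and 11.21 in Olfm4 mutant colon. It fell 4.12-fold (-2.04, SE 0.21, adjusted p = 1.9e-05), and of its 4 other probe sets 2 fell too (-1.26 and -1.10) while 2 were not called (-0.41 and -0.09). Its smooth muscle partner Kcnmb1, which raises the channel's calcium sensitivity, read 8.13, 7.94 and 8.03 in adjacent tissue and 7.59, 7.34 and 6.62 in tumour. The tumour arrays were all lower, yet the difference of -0.85 (SE 0.37) did not pass (adjusted p = 0.11). Kcnmb1 read 9.15, 7.34 and 7.67 in wild type, 8.40, 8.14 and 7.99 in APC mutant and 8.10, 8.16 and 8.22 in Olfm4 mutant colon.

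Kcna2, a delayed rectifier subunit of muscle and nerve, read 6.85, 7.11 and 6.81 in adjacent tissue and 5.12, 4.35 and 4.47 in tumour, against 7.03, 5.46 and 5.82 in wild type, 6.67, 6.78 and 6.66 in APC mutant and 6.61, 7.16 and 7.02 in Olfm4 mutant colon. The tumour arrays were the lowest of all 15, and the fall was 4.84-fold (adjusted p = 0.0002). The next brightest Kcna2 probe set read 5.12, 5.19 and 5.38 in adjacent tissue and 4.79, 5.06 and 5.37 in tumour, which overlapped. Kcne4, an auxiliary subunit that damps several voltage-gated channels, read 7.64, 7.76 and 7.97 in adjacent tissue and 6.22, 5.18 and 6.46 in tumour. Its other arrays read 7.19, 6.64 and 7.27 in wild type, 7.34, 7.30 and 7.45 in APC mutant and 7.31, 7.98 and 7.83 in Olfm4 mutant colon, again all above tumour. The fall was 3.58-fold (adjusted p = 0.0004). Kcnk3, an acid-sensitive background channel, fell 2.89-fold, from 8.04, 7.76 and 7.78 to 6.495, 6.29 and 6.21 (adjusted p = 0.00095), and its 2 other probe sets differed by -0.22 and 0.06. Kcnq5, which carries an M-type current in muscle and neurons, fell 2.27-fold, from 9.31, 8.97 and 8.54 to 8.05, 7.55 and 7.66 (adjusted p = 0.028), and did not pass without adjacent replicate 1 or 2 or tumour replicate 2 or 3 (adjusted p from 0.075 to 0.10). Nor did Kcnq5 pass with its probe sets averaged.

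Other muscle channels did not pass in the main fit. Kcnj8, the pore of the vascular ATP-sensitive channel, read 9.98, 9.47 and 9.68 in adjacent tissue and 9.86, 8.63 and 8.51 in tumour, where the array of the first animal overlapped the adjacent ones (difference -0.71, adjusted p = 0.11). Its levels in the single-mutant and wild type groups were 10.71, 9.92 and 10.42 in wild type, 10.29, 10.30 and 10.09 in APC mutant and 9.76, 9.39 and 9.93 in Olfm4 mutant colon. With the 3 pairs of replicate numbers as a block, Kcnj8 passed as lower (adjusted p = 0.046), and so did Kcnh1 as higher (adjusted p = 0.018). Pairs 2 and 3 are of the same animal, and with each animal's arrays averaged Kcnj8 did not pass (adjusted p = 0.37), while Kcnh1 did (adjusted p = 0.017). The small-conductance calcium-activated channels were not called. Kcnn2 read 5.93, 5.69 and 5.30 in adjacent tissue and 5.51, 5.58 and 5.75 in tumour, with 6.64, 5.50 and 5.82 in wild type, 5.84, 6.17 and 5.98 in APC mutant and 6.18, 5.74 and 5.90 in Olfm4 mutant colon. Kcnn3 read 6.17, 5.76 and 5.98 in adjacent tissue and 5.84, 6.26 and 5.80 in tumour, with 5.99, 6.22 and 6.12 in wild type, 6.06, 5.86 and 5.90 in APC mutant and 6.22, 5.72 and 5.84 in Olfm4 mutant colon. The intervals of their differences ran from -0.57 to 0.51 and from -0.35 to 0.35.

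**Figure D2:**
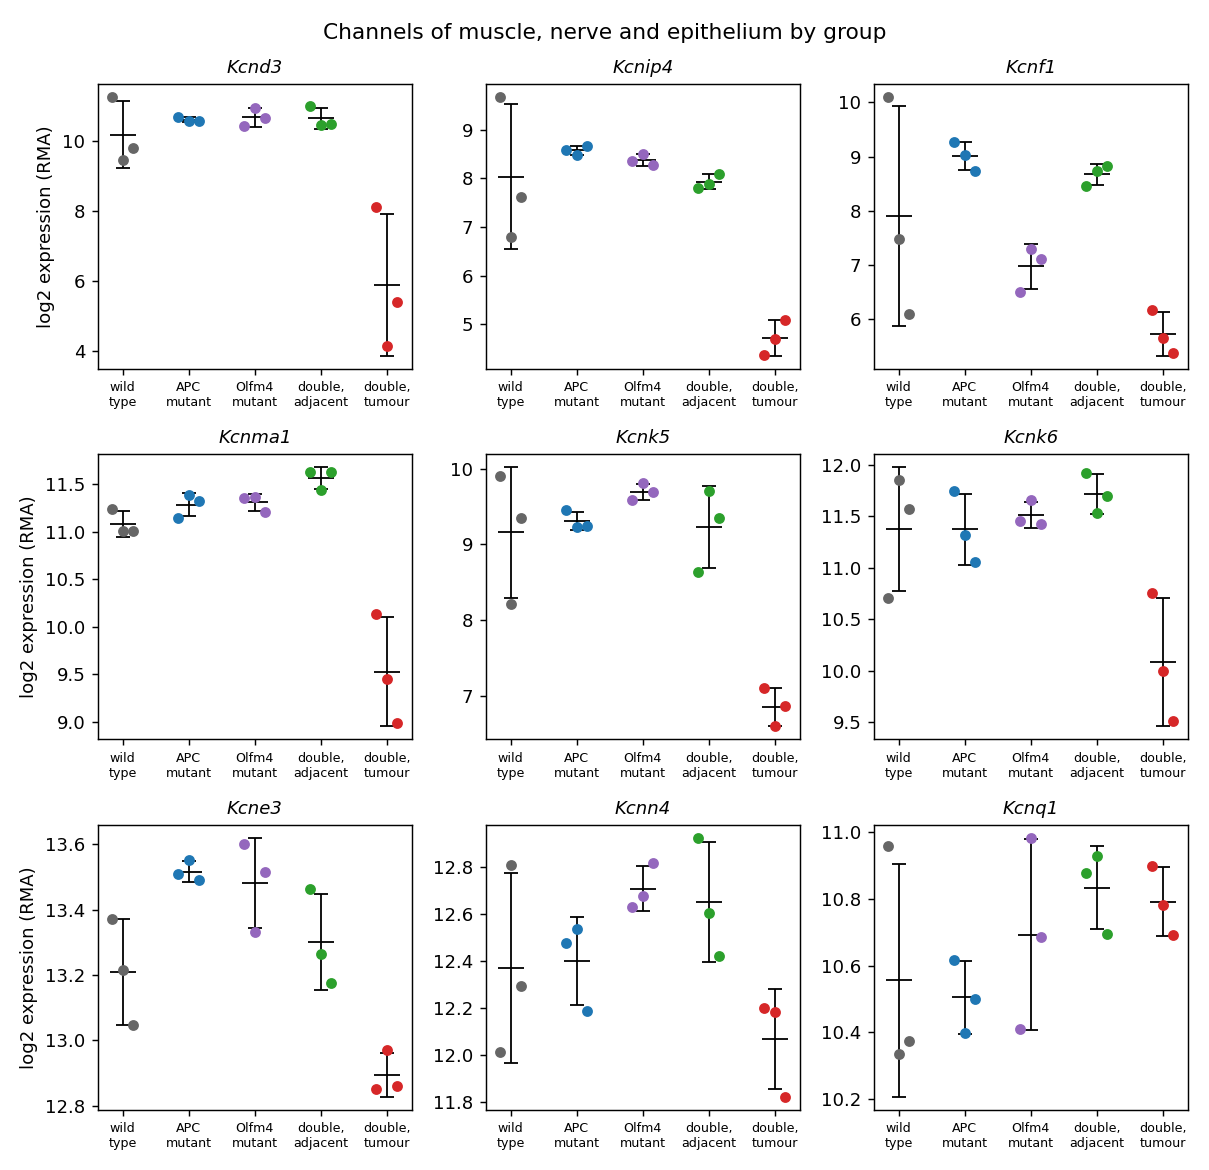
Log2 expression (RMA) of 9 channel genes on each array (points) by group, with the group mean and SD (lines), n = 3; the vertical scale differs between panels. For Kcnd3, Kcnip4, Kcnma1 and Kcnk5 the 3 tumour arrays lay below all other arrays, whereas the tumour arrays of Kcnq1 (10.69 to 10.90) lay among the adjacent ones.

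Of the 29 neuronal channels, 6 fell (Kcnip4, Kcnc2, Kcna1, Kcna6, Kcnc4 and Kcnab2), 1 rose (Kcnmb4) and 22 did not pass. The median of the 29 was -0.05, and over all genes 28.1% passed (13.8% lower and 14.3% higher). Kcnip4, a cytosolic calcium-binding subunit of the Kcnd channels, read 7.80, 7.89 and 8.09 in adjacent tissue and 4.37, 4.69 and 5.09 in tumour. In the other groups it read 9.68, 6.80 and 7.62 (wild type), 8.58, 8.47 and 8.67 (APC mutant) and 8.35, 8.51 and 8.28 (Olfm4 mutant), so no array overlapped with tumour. The fall was 9.27-fold (-3.21, SE 0.50, adjusted p = 0.00041). Kcnip4 and its pore partner Kcnd3 were thus the lowest pair of differences among the 84 genes, while Kcnip1, Kcnip2 and Kcnip3 differed by -0.06, 0.53 and -0.35 and were not called. The 2 other Kcnip4 probe sets differed by -1.49 and -0.73, neither of them called.

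Kcna1, a delayed rectifier subunit of axons, read 7.29, 6.73 and 6.66 in adjacent tissue and 5.19, 4.51 and 4.79 in tumour, with 7.48, 5.62 and 5.72 in wild type, 6.56, 6.71 and 6.58 in APC mutant and 6.49, 6.78 and 6.68 in Olfm4 mutant colon. Kcnc2, a fast delayed rectifier of rapidly firing neurons, read 5.57, 5.66 and 5.000 in adjacent tissue and 3.41, 3.11 and 3.11 in tumour, with 6.18, 3.24 and 4.33 in wild type, 5.71, 5.47 and 5.30 in APC mutant and 5.48, 5.53 and 5.48 in Olfm4 mutant colon. Both fell in tumour, 4.19-fold and 4.59-fold (adjusted p = 0.0013 and 0.0056), though for Kcnc2 a wild type array was as low as tumour. Kcna6, Kcnc4 and the cytosolic subunit Kcnab2 fell by smaller amounts (-0.82, -0.59 and -0.55). Kcnab2 did not pass with its probe sets averaged. Kcna6 passed, of the single arrays left out, only without adjacent replicate 3, and Kcnc4 did not pass without adjacent replicate 1 or tumour replicate 2 or 3 (adjusted p from 0.055 to 0.11). Of the genes in no list, Kcnf1, an electrically silent subunit that modifies other voltage-gated channels, fell most. It read 8.46, 8.74 and 8.83 in adjacent tissue and 6.18, 5.65 and 5.37 in tumour (7.7-fold, adjusted p = 0.0065), and all its probe sets fell. Kcnf1 did not pass with each animal's arrays averaged (adjusted p = 0.063) or with the spike-in covariate (adjusted p = 0.091). Its other arrays were spread widely, at 10.11, 7.49 and 6.11 in wild type, 9.27, 9.04 and 8.73 in APC mutant and 6.51, 7.30 and 7.11 in Olfm4 mutant colon. Kcnab1, a cytosolic subunit of Shaker-type channels, and Kcnj5, a G protein-gated inward rectifier, also fell (log2 differences -1.47 and -0.76, adjusted p = 0.0012 and 0.0021).

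Markers of muscle and nerve moved with these genes. All 12 smooth muscle markers fell in tumour (median -3.14), with summed levels between 140.7 and 147.0 in adjacent tissue and between 99.9 and 118.3 in tumour. Both measured markers of interstitial cells of Cajal (Kit and Ano1, of 3 listed) fell, as did 4 of 9 enteric neuron markers (summed level 73.0 to 73.6 against 55.5 to 61.5) and 2 of 3 glial markers. The part of these markers in the channel results was not tested. All 3 measured B cell markers fell as well, with summed levels of 28.2 to 30.8 in adjacent tissue and 18.2 to 21.5 in tumour. The first animal's tumour array held the highest smooth muscle sum of the 3. Of the 19 Kcn genes that fell, 14 were highest of the 3 tumour arrays on it and 4, Kcnip4 among them, were lowest. Over all genes that fell, 54.5% were highest and 18.9% lowest on it. With the spike-in difference as a covariate, 12 Kcn genes passed in this comparison, 2 higher and 10 lower, against 12.6% of all genes. Kcnd3, Kcnip4, Kcnma1, Kcnk5 and Kcnk6 were among them, and Kcne2 was gained. Those lost were Kcna1, Kcna6, Kcnab2, Kcnc2, Kcnc4, Kcne3, Kcnf1, Kcnk3, Kcnmb4, Kcnn4, Kcnq5 and Kcnu1.

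The 4 genes that rose came from different subfamilies, and each read lower on all 12 arrays without tumour than on any tumour array. Kcnk16, an alkaline-activated tandem pore channel known from pancreatic beta cells, read 5.66, 5.38 and 6.07 in adjacent tissue and 9.06, 7.64 and 8.72 in tumour. It read 5.01, 5.79 and 5.32 in wild type, 5.12, 5.11 and 5.38 in APC mutant and 5.24, 5.42 and 5.17 in Olfm4 mutant colon. No array overlapped with tumour, and the rise was 6.84-fold (2.77, SE 0.31, adjusted p = 2.9e-05). Its neighbour Kcnk5 fell in the same arrays.

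Kcnh8, a voltage-gated channel of the ether-a-go-go family, read 4.18, 4.65 and 4.86 in adjacent tissue and 6.36, 7.08 and 7.52 in tumour, with 4.92, 5.08 and 4.50 in wild type, 4.93, 4.43 and 4.64 in APC mutant and 4.41, 4.72 and 4.57 in Olfm4 mutant colon. All tumour arrays were the highest of the 15, a rise of 5.36-fold (adjusted p = 3e-05). The other 5 Kcnh genes did not pass, Kcnh1 among them at 0.73 (adjusted p = 0.12). Kcnu1, a pH-sensitive channel known from sperm, read 3.88, 4.61 and 4.89 in adjacent tissue and 7.84, 5.44 and 7.10 in tumour. Its other groups lay between 3.89 and 4.84, with 4.23, 4.15 and 4.27 in wild type, 4.30, 4.13 and 3.89 in APC mutant and 4.53, 4.84 and 4.59 in Olfm4 mutant colon. The rise was 5.03-fold (adjusted p = 0.0016), larger in the first animal (3.96) than in the second (1.52).

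Kcnmb4, the neuronal auxiliary subunit of the Kcnma1 channel, read 6.41, 6.30 and 6.38 in adjacent tissue and 7.12, 8.18 and 9.95 in tumour, with 6.08, 6.27 and 6.29 in wild type, 6.25, 5.83 and 5.94 in APC mutant and 5.67, 6.25 and 6.01 in Olfm4 mutant colon. It was the most uneven of the 4 within tumour, and the 4.16-fold rise (adjusted p = 0.0063) was 0.71 in the first animal and 2.73 in the second. Its pore partner Kcnma1 fell in the same comparison. With the spike-in covariate Kcnk16 and Kcnh8 passed, while Kcnu1 and Kcnmb4 did not.

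**Figure D3:**
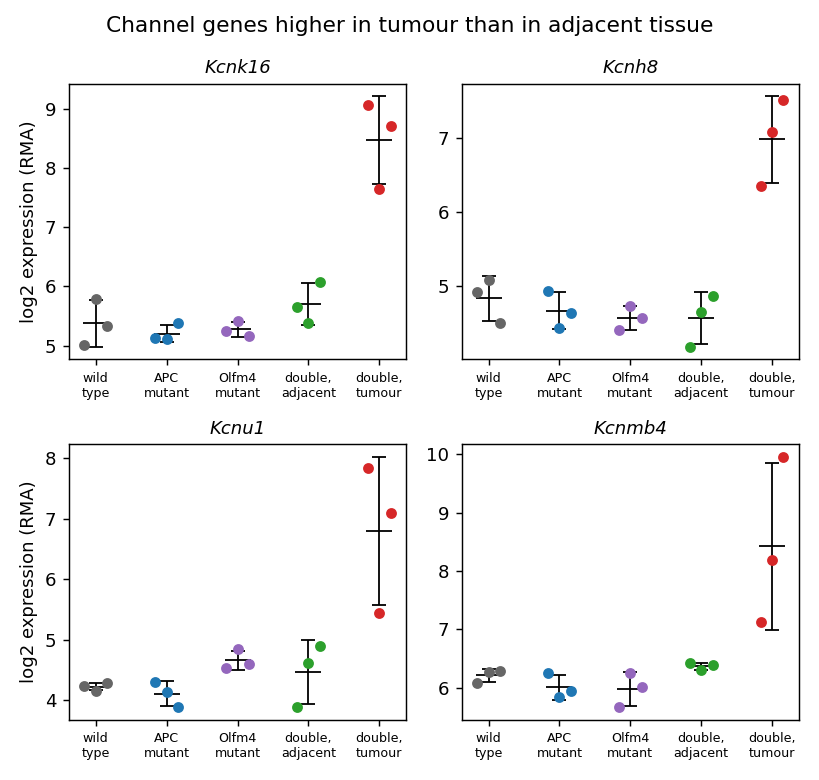
Log2 expression (RMA) of the 4 channel genes higher in tumour than in adjacent tissue on each array (points) by group, with the group mean and SD (lines), n = 3; the vertical scale differs between panels. In each panel the 3 tumour arrays lay above the 12 others, and Kcnmb4 ranged from 7.12 to 9.95 within tumour.

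Other genes of ion transport and the channels' partners were given from a list of 18, of which 16 were measured. In tumour 9 fell and 0 rose, with a median of -0.76. Abcc9, the sulphonylurea receptor that pairs with Kcnj8, fell by 1.68 (log2, SE 0.43, adjusted p = 0.0099), and Dpp6, which escorts Kcnd channels, fell by 1.17. Among epithelial transporters Atp12a, a proton-potassium pump of the distal colon, fell by 2.83, the chloride channel Cftr by 1.60, and the sodium channel subunits Scnn1a and Scnn1g by 1.77 and 2.45. Smaller falls of Ano1 (-0.60), Lrrc26 (-0.69), the Kcnma1 partner of secretory epithelia, and Abcc8 (-0.58) also passed. Slc12a2, the basolateral cotransporter that loads cells with chloride, differed by 0.23 and the pump subunit Atp1b1 by -0.10, neither called.

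Tumour against wild type colon asks how tumour differs from colon with neither mutation. There 32 Kcn genes changed, 13 higher and 19 lower, or 38.1% against 49.4% of all genes (29.3% higher and 20.1% lower). Arrays did not overlap for 32 genes, 14 above and 18 below, against 55.2% of all genes (33.3% above and 21.9% below). The median of the 84 genes was -0.0089, against 0.11 over all genes. The muscle and pacemaker list again had 6 lower and 0 higher of 14, and the epithelial list 3 lower (Kcnk5, Kcnk6 and Kcne3) and 0 higher of 11. The dimmer second probe sets of Kcnk1 and Kcnn4 were lower here too, by -1.40 and -1.91 (log2 difference, adjusted p = 0.0005 and 0.0002 over all probe sets, limma). With a gene's probe sets averaged, both passed as lower (-0.60 and -1.10, adjusted p = 0.011 and 0.0017), although the brighter sets differed by 0.20 and -0.30 without passing. The neuronal list had 6 higher and 4 lower of 29. This comparison shares the tumour arrays with the one before, so it is no separate evidence.

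The 4 highest differences were those of Kcnk16, Kcnu1, Kcnmb4 and Kcnh8. Kcnk16 rose by 3.10 (SE 0.31, adjusted p = 4.9e-06), Kcnu1 by 2.57, Kcnmb4 by 2.21 and Kcnh8 by 2.15. Kcnt2, a sodium-activated channel, rose by 1.45 (adjusted p = 0.025), with 6.40, 6.97 and 7.79 in tumour and 6.56, 4.95 and 5.30 in wild type, and these arrays overlapped. It read 5.83, 6.49 and 6.75 in APC mutant, 6.82, 7.34 and 6.01 in Olfm4 mutant and 7.37, 6.63 and 6.25 in adjacent tissue, so tumour was not set apart from the mutant groups. The 5 lowest differences were Kcnd3 (-4.30), Kcnip4 (-3.32), Kcnk3 (-2.37), Kcnk5 (-2.30) and Kcnf1 (-2.17). Kcnk3, lower against adjacent tissue too, read 9.52, 8.33 and 8.24 in wild type, 8.87, 8.64 and 8.32 in APC mutant and 8.29, 8.04 and 8.31 in Olfm4 mutant colon. Kcnj8, not called against adjacent tissue, was lower against wild type (-1.35, adjusted p = 0.0028), and whether the 2 differences differ from each other was not tested.

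With the spike-in covariate 0 Kcn genes and 0.0055% of all genes passed against wild type, and that covariate nearly follows the groups here. Under cyclic loess normalization 28 passed, 7 higher and 21 lower, against 24.7% of all genes higher and 24.4% lower. The median of all genes moved from 0.106 to -0.007. Genes counted here as slightly higher, such as Kcnj10 (0.42) and Kcnd2 (0.39), are to be read against that shift. For adjacent tissue against wild type the same median moved from 0.132 to 0.013.

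Adjacent tissue against wild type asks how tissue beside a tumour differs from colon with neither mutation. Here 9 Kcn genes changed, 6 higher and 3 lower, or 10.7% against 27.8% of all genes (17.7% higher and 10.1% lower). Arrays did not overlap for 18 genes, 15 above and 3 below, against 40.1% of all genes (26.2% above and 14% below). None of the 11 epithelial genes passed by limma on its brightest probe set. Dimmer second probe sets of 2 of them were lower in adjacent tissue. That of Kcnk1 read 8.89, 9.08 and 8.86 in adjacent tissue and 9.91, 10.84 and 10.40 in wild type (-1.45, adjusted p = 0.0012 over all probe sets, limma). That of Kcnn4 read 9.36, 8.93 and 8.54 in adjacent tissue and 9.86, 10.65 and 9.72 in wild type (-1.14, adjusted p = 0.014). Neither second probe set overlapped between the groups, while the brighter sets differed by 0.14 and 0.28. With a gene's probe sets averaged, Kcnk1 passed as lower (-0.66, adjusted p = 0.015) and Kcnn4 did not (-0.43, adjusted p = 0.21). The median of the 84 was 0.14, close to the 0.13 of all genes.

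Kcnq5 rose most, to 9.31, 8.97 and 8.54 from 8.17, 6.43 and 7.01 (1.74, SE 0.37, adjusted p = 0.0043), with 7.97, 7.66 and 8.05 in APC mutant and 7.82, 8.56 and 7.83 in Olfm4 mutant colon. The means of these 2 groups lay in between, but single arrays overlapped those of wild type and, for Olfm4 mutant colon, those of adjacent tissue. Kcnh2, which repolarises heart and gut muscle, read 7.43, 7.87 and 7.998 in adjacent tissue and 7.17, 6.56 and 5.94 in wild type (1.21, adjusted p = 0.02). The single-mutant arrays of Kcnh2 read 6.86, 6.74 and 6.64 in APC mutant and 6.92, 8.10 and 7.26 in Olfm4 mutant colon, and tumour read 7.78, 7.29 and 6.84. Both genes were thus above all wild type arrays in all 3 adjacent arrays, but Kcnh2 did not pass without wild type replicate 2 or 3 or adjacent replicate 2 or 3 (adjusted p from 0.051 to 0.078). Kcnd1, a transient current subunit like Kcnd3, rose by 0.82, with 7.47, 7.53 and 7.65 in adjacent tissue, 7.49, 7.19 and 7.42 in tumour and 6.89, 6.65 and 6.64 in wild type. Its single-mutant arrays read 6.74, 6.71 and 6.90 in APC mutant and 6.82, 7.76 and 6.95 in Olfm4 mutant colon. Between tumour and adjacent tissue Kcnd1 differed by -0.18, with an interval from -0.61 to 0.25.

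Kcnmb2, an inactivating auxiliary subunit of the Kcnma1 channel, rose by 0.69, with 4.63, 5.38 and 5.41 in adjacent tissue and 4.50, 4.21 and 4.64 in wild type, which overlapped. It read 4.23, 4.64 and 4.58 in APC mutant colon, 4.63, 4.91 and 4.88 in Olfm4 mutant colon and 4.79, 4.49 and 4.78 in tumour. Kcnab2 rose by 0.55, with 6.5004, 6.501 and 6.20 in adjacent tissue against 5.95, 5.83 and 5.76 in wild type, 5.99, 5.68 and 5.91 in APC mutant, 5.94, 6.39 and 6.30 in Olfm4 mutant and 5.75, 5.93 and 5.88 in tumour arrays. A second, dimmer Kcnab2 probe set did not rise, with 5.19, 4.84 and 5.11 in adjacent tissue and 5.33, 5.14 and 5.32 in wild type. Kcnd2, a neuronal relative of Kcnd3, rose by 0.49. Each of these 3 differences was under 1 on the log2 scale. Kcnmb2 did not pass without wild type replicate 2 or adjacent replicate 2 or 3 (adjusted p from 0.095 to 0.10), nor Kcnd2 without adjacent replicate 2 (0.052).

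Of the 3 that fell, Kcnq1ot1, the imprinted antisense RNA of the Kcnq1 locus, fell most. It read 5.60, 5.31 and 6.27 in adjacent tissue and 7.44, 7.10 and 6.85 in wild type (-1.40, SE 0.36, adjusted p = 0.012), with 6.97, 7.41 and 8.10 in APC mutant, 7.27, 5.88 and 6.79 in Olfm4 mutant and 5.64, 5.53 and 5.93 in tumour. Adjacent and tumour arrays had the largest spike-in differences and the lowest Kcnq1ot1 means, and the APC mutant mean exceeded that of wild type in both measures. The spike-in difference moved with the groups, so its part and that of the group cannot be told apart. With the spike-in covariate the Kcnq1ot1 difference was -0.53 (adjusted p = 1). Without adjacent replicate 2 its adjusted p was 0.053. Its other probe sets, not called, differed by between -0.57 and 0.16. Kcnq1 itself did not pass (0.28, adjusted p = 0.27). Kcnk15, a tandem pore subunit with little known current, read 6.45, 6.35 and 6.52 in adjacent tissue, 6.25, 6.67 and 6.12 in tumour, 8.27, 6.89 and 6.83 in wild type, 7.28, 7.52 and 7.70 in APC mutant and 7.24, 6.97 and 7.51 in Olfm4 mutant colon. Kcnk15 (-0.89) and Kcnk3 (-0.84) both had their highest value on wild type replicate 1, and neither passed without it (adjusted p = 0.12 and 0.076). Kcnk15 also failed without any single adjacent array, and Kcnk3 without adjacent replicate 2 or 3 (adjusted p from 0.092 to 0.12). With the spike-in covariate 0 of the 84 and 0% of all genes passed in this comparison. With a gene's probe sets averaged 6 of the 84 passed, against 24.7% of all genes. That lost Kcnab2, Kcnd2, Kcnk15, Kcnmb2 and Kcnq1ot1 and gained Kcnk1 and Kcnn1.

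Wild type replicate 1 read higher for muscle and nerve markers than the other wild type arrays. Its mean over the 12 smooth muscle markers was 13.1, against 11.67 and 11.83, and its enteric neuron sum was 84.3, against 65.0 and 70.6. It exceeded both other wild type arrays by more than 1 (log2) in 14 of 84 Kcn genes, or 16.7%, against 3.85% of all genes. These were 5 of 14 muscle and pacemaker genes, 5 of 29 neuronal genes and 0 of 11 epithelial genes, the remaining 4 being in no list. Kcnq3, an M-channel subunit, read 7.64, 5.26 and 6.20 in wild type, and Kcnf1, Kcnip4 and Kcnc2 were spread as given above.

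**Figure D4:**
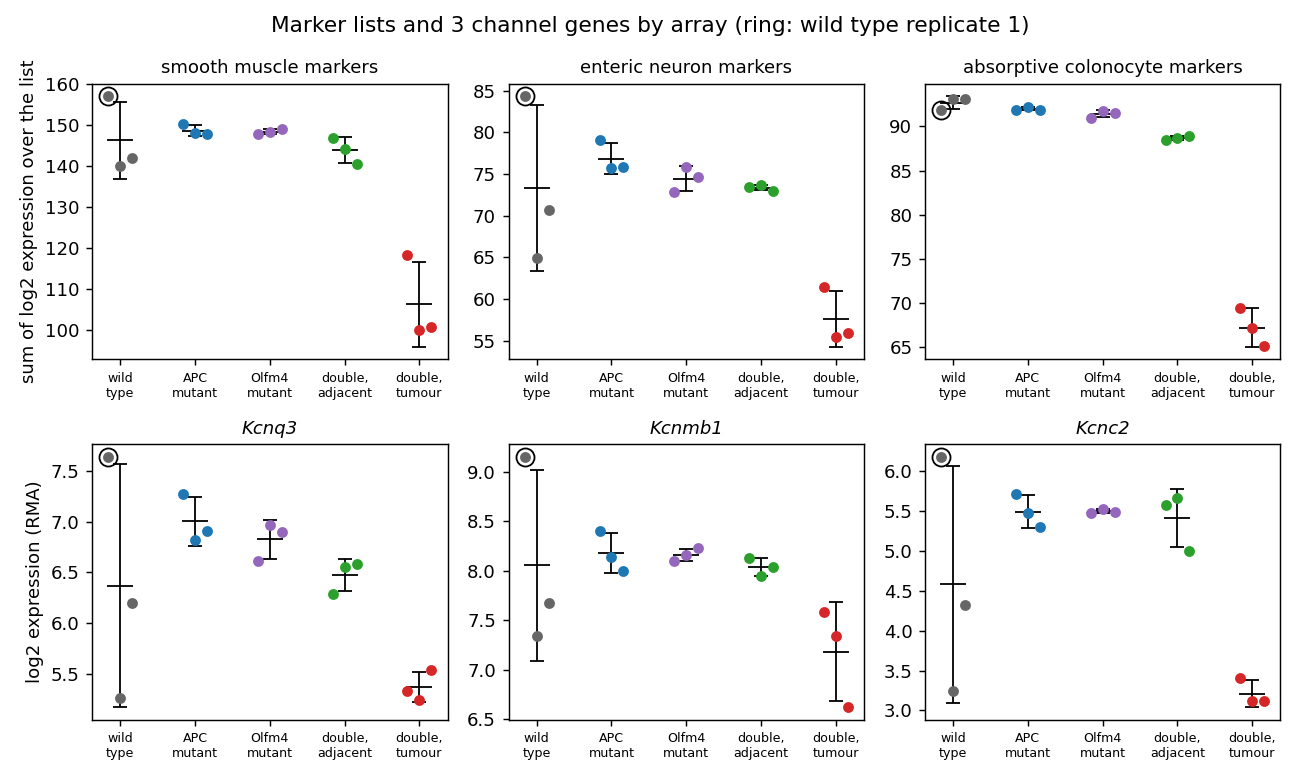
Summed log2 expression of 3 marker lists (upper row) and log2 expression of 3 channel genes (lower row) on each array (points) by group, with the group mean and SD (lines), n = 3; the ring marks wild type replicate 1. That array was the highest of all 15 for the smooth muscle and enteric neuron sums and for the 3 genes, and the lowest wild type array (91.8) for the absorptive colonocyte sum.

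Without that array, 18 Kcn genes differed between adjacent tissue and wild type, 17 higher and 1 lower, in place of 9. Over all genes the share called was 27.7% without it (18.1% higher and 9.53% lower) and 27.8% with it (17.7% higher and 10.1% lower). Those gained included Kcnf1 (1.88), Kcnc2 (1.63), Kcnt2 (1.63), Kcna2 (1.28), Kcna1 (1.22) and Kcnq1 (0.48). Wild type replicates 2 and 3 are then the whole control, and whether they or replicate 1 represent wild type colon was not tested.

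**Figure D5:**
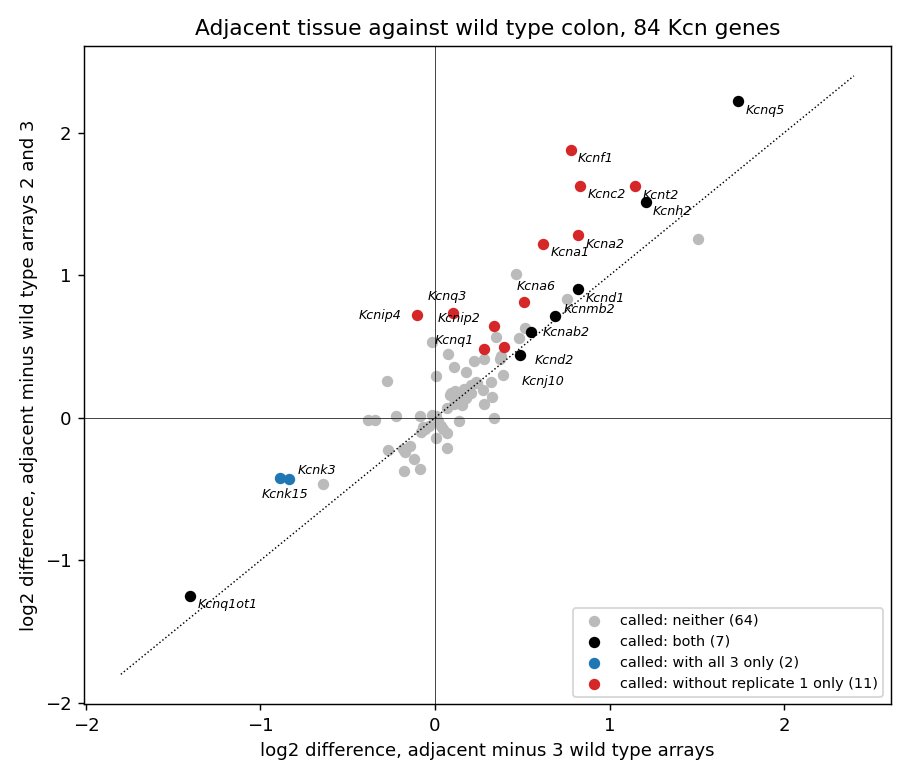
Log2 difference of adjacent tissue minus wild type for the 84 Kcn genes (points), with all 3 wild type arrays (horizontal) and without wild type replicate 1 (vertical); colours give the calls and the dotted line marks equal values. Of the genes, 7 were called both ways, 2 with all 3 arrays only and 11 without replicate 1 only.

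On its brightest probe set no Kcn gene was called between a single mutant and wild type with all arrays. A dimmer Kcnk1 probe set was lower in Olfm4 mutant colon, as given under other observations. In APC mutant against wild type colon 0 of 84 Kcn genes passed by limma, as did 0% of all genes, and 2 Kcn genes had an unadjusted p under 0.05, Kcnk12 (-0.40) and Kcne3 (0.31). Arrays did not overlap for 7 Kcn genes, 2 above and 5 below, against 9.13% of all genes (4.66% above and 4.47% below). In Olfm4 mutant against wild type colon 0 of 84 passed by limma, against 7.92% of all genes (5.42% higher and 2.5% lower), and 13 had an unadjusted p under 0.05. The lowest adjusted p was that of Kcnn1, a neuronal small-conductance channel (0.40, adjusted p = 0.093), and arrays did not overlap for 10 Kcn genes, 6 above and 4 below, against 27% of all genes (17% above and 10% below). The interaction asks whether the difference of double mutant adjacent tissue from APC mutant colon departs from that of Olfm4 mutant from wild type colon. For it 0 of 84 passed by limma, as did 0% of all genes, with 7 at an unadjusted p under 0.05 and a lowest adjusted p of 0.37 (Kcnk10). How many of all genes had an unadjusted p under 0.05 was not counted. The 2, 13 and 7 Kcn genes are thus set against no background and are no result about these genes.

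Without wild type replicate 1, 4 Kcn genes passed as higher with the APC mutation than in wild type colon. Of all genes 1.03% were called, 0.857% as higher. The 4 Kcn genes were Kcnf1 (2.22), Kcnc2 (1.71), Kcnip4 (1.37) and Kcnq3 (1.27). In Olfm4 mutant colon 9 were then higher, led by Kcnc2 (1.71), Kcnt2 (1.60), Kcnq5 (1.35) and Kcna2 (1.29). Of all genes 12.3% were called there, 9.34% as higher and 2.95% as lower. The interaction then had 2 genes, Kcnip4 and Kcnk15, both negative, against 0.511% of all genes (0.412% negative). In all 4 genes of the APC comparison and 7 of the 9 of the Olfm4 comparison, replicate 1 exceeded both other wild type arrays by more than 1. None of the 11 epithelial genes passed on its brightest probe set in these 3 comparisons without replicate 1.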

How the data were processed

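Trizol total RNA was made into biotin-labelled cRNA for Affymetrix Mouse430_2 chips, per the labels' protocols. The deposited values are on a log2 scale, as their range shows, and the submitters' processing notes name RMA and Partek 6.5. Neither a genome build nor detection calls are given, so a dim gene cannot be told from background, and the number of arrays limits the precision.

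Of 45101 probe sets 64 were controls, and the platform annotation gave 1 gene symbol to 34945, several to 932 and none to 9160, of which only the first were used. The 84 Kcn genes had 167 probe sets, and 46 genes had more than 1. In tumour against adjacent tissue all probe sets of 1 of those 46 genes were called alike, some in 15 and none in 30, and 0 genes had calls in opposite directions. The 15 were Kcna1, Kcna2, Kcna6, Kcnab1, Kcnab2, Kcnc1, Kcnc4, Kcnd2, Kcnd3, Kcnip4, Kcnj5, Kcnk3, Kcnk5, Kcnma1 and Kcnq5.

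Groups came from the labels' genotypes and tissues. All 15 arrays entered 1 limma model of 5 group means (limma 3.58.1, R 4.3.3), with Benjamini-Hochberg adjustment over 18193 genes within each comparison and an adjusted p of 0.05 as threshold. Every adjusted p in the text is from limma, and intervals are at 95%. On simulated data with 200 of 18193 genes changed, the fit found 62% of the genes moved by 1 (log2) and 93% of the genes moved by 2 in tumour against adjacent tissue. The simulated arrays were independent, whereas real arrays of 1 animal had a consensus correlation of 0.35 over genes. Far fewer genes were changed than the 28.1% called here. These shares are thus not the sensitivity of the real comparison. The members and lists were chosen with earlier results of these data known. Every member could be named, and values of every array were given for 15 measured fixed channels and for the called genes with the largest differences in each comparison (8 in each direction for tumour against adjacent tissue, 5 in the others). Genes that are no members came from a list of transport genes and from marker lists.

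Adjacent and tumour arrays with the same replicate number come from the same animal by their titles. Over genes, the correlation of their deviations from the group means was 0.281 for pair 1, -0.0155 for pair 2 and 0.182 for pair 3. Crossed pairs within the second animal gave 0.124 and 0.126, and pairs of different animals gave -0.259 to -0.0881. The alternatives tried were averaging a gene's probe sets, testing only genes above the median mean, cyclic loess, a trend and robust prior, fitting only the groups compared, the spike-in covariate (mean over the added dap, lys, phe and thr RNAs) and leaving out each array. Others were a random animal block, averaging an animal's arrays, and replicate blocks, of which the block by animal was chosen after seeing the data.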

Additional observations from a re-analysis of the deposited data

Results flagged for a closer look

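For 4 Kcn genes every array of one mutant background lay on the opposite side of its control from every array of the other, so the effect of a mutation had opposite signs with and without the second mutation. They made 4.76% of the 84, against 1.21% of all genes. Kcnk10, a tandem pore channel, was lower in Olfm4 mutant than in wild type colon (-0.37) and higher in adjacent tissue than in APC mutant colon (0.37), which lie 0.74 apart. Kcnk12, an electrically quiet tandem pore subunit, moved by -0.27 and 0.21 in the same comparisons, a difference of 0.48. Kcnj11, the pore of the ATP-sensitive channel of muscle and endocrine cells, was lower with the APC mutation than without it (-0.18) and higher in adjacent than in Olfm4 mutant tissue (0.40), a difference of 0.58. Kcnt1, a sodium-activated channel, moved by -0.19 and 0.34 in those comparisons, a difference of 0.53. Under cyclic loess normalization the adjacent arrays of Kcnk10 and Kcnk12 overlapped those of APC mutant colon. Kcnk10 then read 5.95 in adjacent replicate 3 and 6.08 in APC mutant replicate 3. For Kcnk12 adjacent replicates 2 and 3 read 5.42 and 5.43, and APC mutant replicate 3 read 5.52. None of the 4 passed the interaction test by limma, whose adjusted p was 0.37 for Kcnk10, 0.45 for Kcnk12, 0.46 for Kcnj11 and 0.40 for Kcnt1. The adjacent arrays also differed from the single mutants in the spike-in difference, and its part here was not tested.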

How the results depend on the processing

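Brackets give the share of all genes tested that passed in the same setting. In tumour against adjacent tissue 23 Kcn genes passed (28.1%), and from 18 to 23 with single arrays left out (21.5% to 25.1%). With the replicate block of pairs 1 to 3, 25 passed (27%), gaining Kcnh1 and Kcnj8 and losing none. The block by animal gave 24 (28.5%), and animal as a random block gave 30 (36.4%). With each animal's arrays averaged, which leaves 2 adjacent and 2 tumour values, 18 passed (18.1%). That lost Kcna6, Kcnc4, Kcne3, Kcnf1, Kcnn4 and Kcnq5 and gained Kcnh1. The count fell to 12 with the spike-in covariate (12.6%) and to 6 of the 9 genes tested above the median mean (36.6%). Under cyclic loess 21 passed (29.2%), losing Kcne3 and Kcnn4. Against wild type, 32 passed in tumour (49.4%), and from 23 to 31 with single arrays left out (43.6% to 46.6%). There 17 passed with only the groups compared (40.5%), 6 above the median mean (64.8%) and 0 with the covariate (0.0055%). In adjacent tissue 9 passed (27.8%), and from 3 to 18 with single arrays left out (19% to 27.7%). There 18 passed without wild type replicate 1 (27.7%), 3 without adjacent replicate 2 (20.2%) and 5 without adjacent replicate 3 (19%). The count was 5 with the arrays of an animal averaged (18.5%), 0 above the median mean (43.7%) and 0 with the covariate (0%). For APC mutant, Olfm4 mutant and the interaction the counts of 0 ran up to 4, 9 and 2 with single arrays left out. Each was highest without wild type replicate 1 (1.03%, 12.3% and 0.511%), and 1 gene, Kcnn1, passed without Olfm4 mutant replicate 3 (1.67%).

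Signs turned with the spike-in covariate in tumour against adjacent tissue for Kcnk1 (-0.14) and Kcnn2 (0.38). In tumour against wild type they turned for Kcnd1 (-1.08), Kcne3 (0.33), Kcnj10 (-0.18) and Kcnmb4os1 (-0.19), and in adjacent tissue against wild type for Kcnd1 (-0.39) and Kcnh2 (-0.50). Differences near 0 in tumour against adjacent tissue also turned with single arrays left out. Kcnn2 ran from -0.20 to 0.11, turning without adjacent replicate 1 (0.11) or tumour replicate 1 (0.02). Kcnn3 ran from -0.14 to 0.10, turning without adjacent replicate 2 (-0.10) or tumour replicate 2 (-0.14), and was -0.079 with arrays averaged. Kcnq1 ran from -0.11 to 0.0064, turning without adjacent replicate 2 (0.0052) or tumour replicate 3 (0.0064). None of these turned values passed the test. The cause of these changes was not tested. Fewer genes are tested above the median mean, and the covariate nearly follows the groups, so it cannot be told apart from them.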

Other observations

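The dimmer Kcnk1 probe set was also lower in Olfm4 mutant than in wild type colon (log2 difference -1.01, adjusted p = 0.028 over all probe sets, limma), whereas the brighter one differed by -0.03. One Kcnma1 probe set was lower in adjacent tissue than in wild type (-1.03, adjusted p = 0.047), where the brightest was higher by 0.48 without passing. Both were chosen after their values were seen. Mast cell markers stood high in tumour, with summed levels of 39.9 to 50.8 against 27.8 to 37.6 in adjacent tissue, although 1 of 4, Ms4a2, passed, while endothelial and macrophage markers had 0 of 5 and 0 of 4 called by limma.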
